A study of Oryza sativa with 12 samples.

Results

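The rice genes RCAA1, RCABP89, PSAG, PORA and LIR1, which serve photosynthesis or respond to light, are described here in developing seeds of a wild type and of 3 transgenic high-lysine lines. These 5 of the 17905 genes with a probe set of their own were chosen by their measured levels, because GR14 had been seen to differ from the wild type on them. They were found on the array as every probe set assigned to exactly 1 gene whose symbol or synonym is one of these names. That gave 9 of the 57381 probe sets, namely 4 for RCAA1 (LOC4351224), 2 for PSAG (LOC4337812) and 1 each for RCABP89 (LOC4333359), PORA (LOC4337415) and LIR1 (LOC4326442). All 9 passed the filter on low values. Another probe set, assigned to LIR1 and 2 further genes together, is outside the rule and was left out.

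The series holds 12 Affymetrix arrays in 4 groups of 3. Wuxiangjiang9 serves as the wild type (WT), with a normal lysine level per the labels. The other groups are the transgenic lines GR14, 35S-15 and HFL1, each with a high one. The sample labels give seeds at 10 days after flowering, whereas the design text gives 15. All plants grew in a field, and neither the transgenes, their promoters, the number of plants behind an array nor the time of day at sampling are stated in the labels, so the spread between arrays may be technical.

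RuBisCO activase, encoded by RCAA1, frees the active sites of RuBisCO from inhibitory sugar phosphates so that carbon can be fixed. RCABP89 encodes a chlorophyll a/b-binding protein of the light-harvesting antenna, and PSAG encodes a small subunit of photosystem I. PORA encodes a protochlorophyllide oxidoreductase, which needs light to carry out a late step of chlorophyll synthesis. LIR1 is a small chloroplast protein whose transcript in rice leaves is induced by light and cycles over the day, and it is known to bind the leaf ferredoxin-NADP reductase. In a young rice seed the green tissue is mainly the pericarp, the maternal layer around the endosperm.

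The arrays carried the signature of seed tissue. Of 20 listed endosperm markers 9 were on the array under those names, and their summed MAS5 signal (the linear intensity deposited by the authors) was between 279000 and 500000 in the 12 arrays, with 0 of the 8 tested markers past the test in any of the 6 comparisons; GLUB4 was below the array median. Spearman correlations between arrays were between 0.925 and 0.971. WT was not uniform. A reporter probe set, RPTR-Os-K01193-1_at, was bright in WT arrays 2 and 3 (13.51 and 13.78 on the log2 scale). It was dim in WT array 1 (4.53), and no GR14, 35S-15 or HFL1 array exceeded 4.67. The rice gene BIP4 split the WT arrays likewise, with 4.88, 12.71 and 13.17 for replicates 1, 2 and 3. Its brightest reading outside WT was 6.13. Whether WT arrays 2 and 3 came from the same plant material as WT array 1 was not tested. Comparisons with WT include them unless WT array 1 is named as the only control. GR14 array 3 had the largest difference between the 3' and 5' actin control probe sets, 6.43 on the log2 scale against 4.69 to 5.92 elsewhere. For the gapdh control the largest was in 35S-15 array 1, 4.93 against 0.78 to 3.87 elsewhere. On the lys and phe controls GR14 array 3 was again the highest, at 1.61 and 2.10 against at most 0.65 and 0.56 elsewhere. Without it the log2 differences of GR14 from WT given below were between -3.31 and -2.70 for RCAA1, -1.90 for RCABP89, -1.87 and -1.63 for PSAG, -2.61 for PORA and 2.71 for LIR1.

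In GR14 seeds RCAA1, RCABP89, PSAG and PORA were lower, and LIR1 was higher, than in WT, by 3.76-fold to 10.6-fold on the 8 probe sets that stood clear of background. In 35S-15 and HFL1 the same 8 probe sets differed from WT by at most 0.46 on the log2 scale. On those 8 probe sets the GR14 arrays did not overlap the 9 arrays of the other groups, as was so for 4.77% of all 31792 tested probe sets with GR14 lower and 5.89% with GR14 higher. These GR14 differences chose the genes, so they are a description and carry no test. In these whole-seed samples, fewer green cells and less RNA per green cell cannot be told apart.

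**Figure D1:**
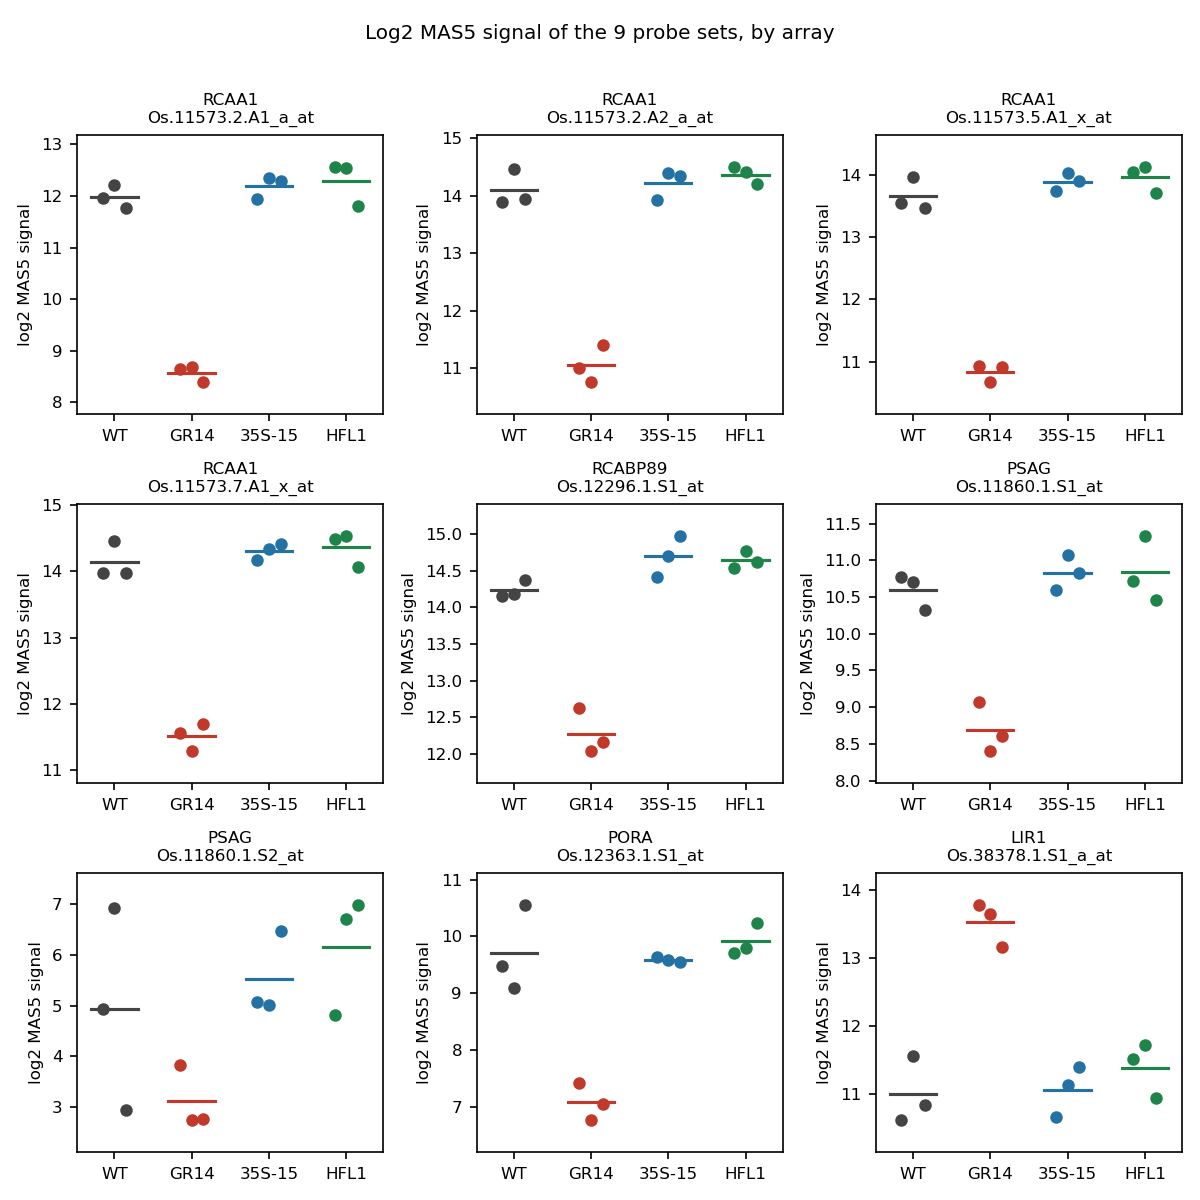
Log2 MAS5 signal (vertical axis, a separate range in each panel) of the 9 probe sets in the 4 groups, with 1 point per array and a bar at the mean of 3 arrays. GR14 lies apart from the other groups in 8 panels, below them for RCAA1, RCABP89, PORA and 1 PSAG probe set and above them for LIR1, and overlaps WT for the dimmer PSAG probe set.

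Light capture is described first. RCABP89 had log2 signals of 14.16, 14.18 and 14.37 in the WT arrays and of 12.63, 12.04 and 12.16 in the GR14 arrays. In 35S-15 the arrays read 14.42, 14.70 and 14.97, and in HFL1 14.54, 14.77 and 14.62. GR14 was thus the low group, and every 35S-15 and HFL1 array was above every WT array. The GR14 level was 3.89-fold below WT, a log2 difference of -1.96 ± 0.17 (standard error, SE, of the fit; 3 arrays a group). The order of group means was 35S-15, HFL1, WT and GR14, at 14.69 ± 0.27, 14.64 ± 0.12, 14.23 ± 0.11 and 12.28 ± 0.31 (SD, n = 3), and 35S-15 and HFL1 did not differ beyond their spread.

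The photosystem I gene PSAG had 2 probe sets of unequal brightness. On the brighter, the WT arrays read 10.77, 10.71 and 10.32 and the GR14 arrays 9.07, 8.40 and 8.60. The 35S-15 arrays read 10.60, 11.07 and 10.83, and the HFL1 arrays 10.72, 11.33 and 10.46. All GR14 arrays were below all others, while WT, 35S-15 and HFL1 overlapped. The log2 difference of GR14 from WT was -1.91 ± 0.24. The dimmer probe set lay above the array median in 1 WT, 0 GR14, 1 35S-15 and 2 HFL1 arrays, and its WT arrays alone spanned 2.94 to 6.91. Its log2 difference of -1.80 ± 1.00 therefore has no firm size, and GR14 and WT overlapped on it.

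For carbon fixation, RCAA1 was read by 4 probe sets, which share the gene and are not independent measurements. The brightest on average gave 13.98, 14.45 and 13.97 in WT and 11.56, 11.29 and 11.70 in GR14. The 35S-15 values were 14.17, 14.33 and 14.41, and the HFL1 values 14.48, 14.53 and 14.07. GR14 was the low group by 2.26 on the log2 scale between its highest array and the lowest of the other 9. The same gap was 2.48, 2.54 and 3.07 on the other probe sets, each of which exceeds the whole range of the 9 other arrays (0.56 to 0.80 over the 4 probe sets). The log2 difference of GR14 from WT was between -3.40 ± 0.20 on the dimmest probe set and -2.61 ± 0.17 on the brightest. The probe sets therefore shared a direction while differing in size, the largest linear difference being 10.6-fold and the smallest 6.10-fold. The brightest is one whose name ends in _x_at, which marks probes that may also bind other transcripts.

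PORA, of chlorophyll synthesis, had the most variable WT values among the 8 clear probe sets. The WT arrays read 9.48, 9.09 and 10.55 (SD 0.76), and the GR14 arrays 7.42, 6.76 and 7.04. The 35S-15 arrays read 9.64, 9.58 and 9.54, and the HFL1 arrays 9.71, 9.80 and 10.24. GR14 was again lowest without overlap, and HFL1 was above 35S-15 in every array. The log2 difference of GR14 from WT was -2.63 ± 0.31, or 6.19-fold, and over the alternatives tried it was between -2.94 and -2.21.

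LIR1 ran the opposite way. Its log2 signal was 10.61, 11.55 and 10.83 in the WT arrays and 13.77, 13.64 and 13.15 in the GR14 arrays. Readings of 10.66, 11.13 and 11.39 came from 35S-15, and of 11.51, 11.71 and 10.93 from HFL1. GR14 was highest in all 3 arrays, by a log2 difference from WT of 2.52 ± 0.28 (5.75-fold), and the other groups overlapped one another. The group means were 13.52 ± 0.32 in GR14, 11.38 ± 0.40 in HFL1, 11.06 ± 0.37 in 35S-15 and 11.00 ± 0.50 in WT (SD, n = 3), of which the last 3 did not differ beyond their spread.

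Counted over the 9 probe sets, the GR14 and WT arrays stood apart on 7 in the lower direction and 1 in the higher direction. Of all 31792 tested probe sets, the arrays of these groups stood apart on 11.0% in the lower and 14.0% in the higher direction; since the contrast chose the genes, nothing is read from this. Against the 2 other lines GR14 showed the same levels from the other side. The log2 difference of 35S-15 from GR14 was 2.42 ± 0.17 for RCABP89, 2.15 ± 0.24 for PSAG on its brighter probe set, 2.51 ± 0.31 for PORA and -2.46 ± 0.28 for LIR1, and between 2.78 and 3.62 over the RCAA1 probe sets. HFL1 had corresponding values of 2.37 ± 0.17, 2.15 ± 0.24, 2.84 ± 0.31 and -2.14 ± 0.28, and between 2.84 and 3.72 for RCAA1. These comparisons share the GR14 arrays with the one that chose the genes and are likewise untested.

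**Figure D2:**
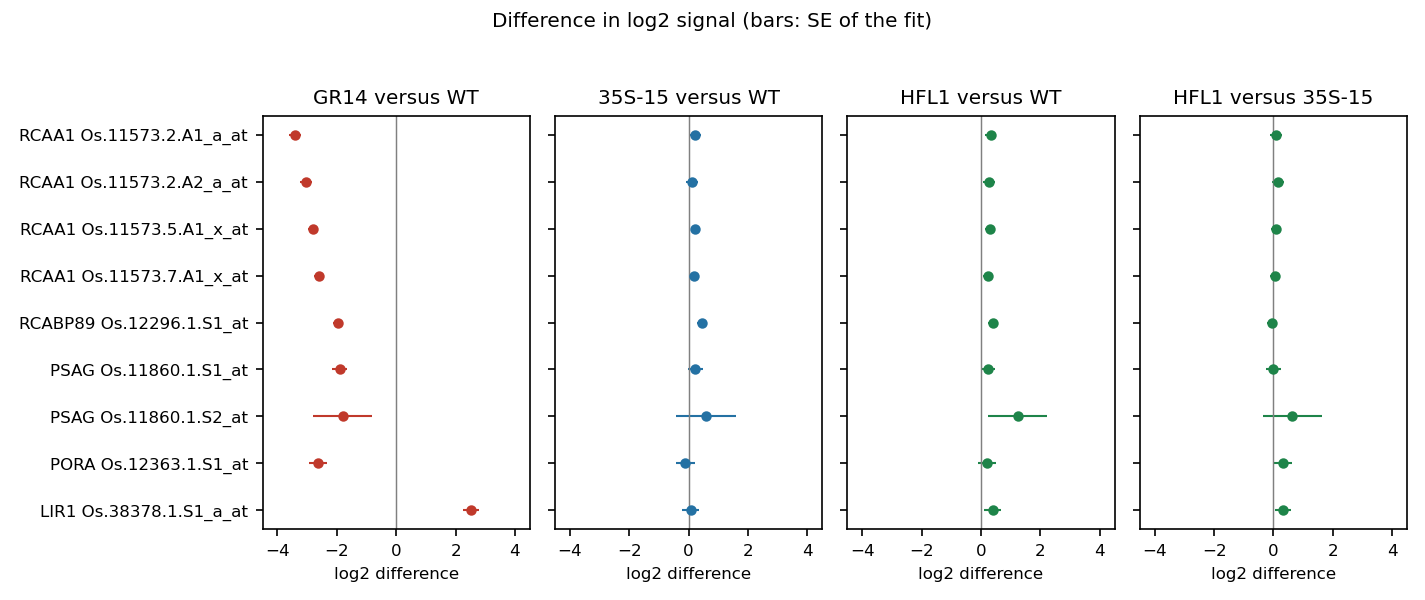
Difference in log2 signal (horizontal axis) of each of the 9 probe sets in 4 comparisons, with bars for the SE of the fit. Differences of GR14 from WT are between -3.40 and 2.52, whereas those of 35S-15 and HFL1 from WT and of HFL1 from 35S-15 lie between -0.11 and 1.23.

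The levels of the 5 genes in 35S-15 and HFL1 were then tested, first between these lines. The log2 differences between the lines use no array of the choice. Their p-values and intervals come from the model of all 4 groups, whose estimate of spread also draws on the WT and GR14 arrays. These p-values and intervals are therefore not fully independent of the choice. HFL1 and 35S-15 did not differ on any of the 9 probe sets past a limma adjusted p of 0.05 (lowest adjusted p 0.974), while 0.00629% of all tested probe sets passed. An unadjusted p under 0.05 was seen for 0 of the 9 and for 4.46% of all tested probe sets. The log2 difference of HFL1 from 35S-15 was -0.05 for RCABP89 (95% interval -0.42 to 0.32) and 0.05 for RCAA1 on its brightest probe set (-0.31 to 0.42). For PSAG on its brighter probe set the interval was -0.51 to 0.52. LIR1 had a difference of 0.32 (-0.27 to 0.91) and PORA of 0.33 (-0.33 to 0.99), and PORA was the 1 gene on which the arrays of the lines stood apart, as 4.51% of all tested probe sets did in the higher direction. For the dim PSAG probe set the interval, -1.52 to 2.80, is wide on both sides of 0.

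The WT arrays also took part in the choice, so p-values, intervals and counts of the 9 probe sets against WT are not independent of it. Against WT limma called 0 of the 9 probe sets in 35S-15 and 0 in HFL1, beside 0.0283% of all tested probe sets in each line. An unadjusted p under 0.05 was seen for 1 of the 9 in each line, RCABP89 both times, against 6.19% of all tested probe sets in 35S-15 and 6.74% in HFL1. RCABP89 was higher than WT by a log2 difference of 0.46 ± 0.17 in 35S-15 (limma adjusted p 0.803, interval 0.09 to 0.83) and of 0.41 ± 0.17 in HFL1 (adjusted p 0.724, interval 0.04 to 0.78). It was also the only one of the 9 on which the arrays of 35S-15, and those of HFL1, stood apart from WT, as 6.21% and 7.40% of all tested probe sets did in the higher direction. The RCAA1 differences were between 0.12 and 0.23 in 35S-15 and between 0.23 and 0.32 in HFL1. PSAG on its brighter probe set had 0.23 and 0.24, PORA -0.11 and 0.21, and LIR1 0.07 and 0.39. The 2 comparisons share the WT arrays, so their agreement in sign is not a separate observation.

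The probe sets also varied within groups. After each group mean was subtracted, the 4 RCAA1 probe sets had Pearson correlations with one another between 0.42 and 0.94 over the 12 arrays. RCAA1 on its brightest probe set correlated with LIR1 at 0.65 and with PSAG on its brighter probe set at 0.57. With PORA its correlation was -0.48, and with RCABP89 0.25. Pooled over the 12 arrays, LIR1 thus varied within groups in the same direction as RCAA1. Inside GR14 the RCAA1 probe sets disagreed on this. The deviations of GR14 arrays 1, 2 and 3 from the group mean were 0.04, -0.23 and 0.18 for RCAA1 on its brightest probe set. For LIR1 they were 0.25, 0.12 and -0.37, opposite in sign on GR14 arrays 2 and 3. The dimmest RCAA1 probe set deviated by 0.08, 0.11 and -0.19, with the same signs as LIR1. The remaining RCAA1 probe sets had -0.30 and 0.35, and -0.17 and 0.08, on GR14 arrays 2 and 3. These correlations are descriptions over few arrays, and values on 1 array share its hybridisation and scaling.

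To place the 5 genes in their pathway, 26 further photosynthesis genes with a symbol on the array were examined, of which 25 were tested on 1 probe set per gene. In GR14 against WT 6 of the 25 fell and 2 rose by limma, against 2.96% and 2.70% of all tested probe sets. These are unlike sets, since the list holds named genes on their brightest probe set and was written with earlier results known. All tested probe sets include dimmer and unnamed ones. The same limit holds wherever the lists are set beside all tested probe sets below. The list's median log2 difference was -0.03, against 0.03 over all tested probe sets. The members of the list that fell were mainly those of chlorophyll metabolism.

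Of the 11 listed genes of chlorophyll synthesis and breakdown that were matched by symbol, 4 fell in GR14 and 0 rose. The list is not the whole pathway, as ALADH, named further below, is outside it. CHLP, which encodes geranylgeranyl reductase, the enzyme that makes the phytyl tail, fell from 12.39, 12.49 and 12.35 in WT to 10.77, 10.59 and 10.64, a log2 difference of -1.75 ± 0.12 (limma adjusted p 2.62e-06). CHLH, the large subunit of magnesium chelatase, had a difference of -1.63 ± 0.15 (adjusted p 3.91e-05), with all GR14 arrays below all WT arrays. A second CHLH probe set had -0.36 ± 0.22 (adjusted p 0.39), so the gene's probe sets disagree. GLUTR, glutamyl-tRNA reductase at the entry to the pathway, differed by -1.34 ± 0.16 (adjusted p 0.000282). The fourth was SGR, a chlorophyll-degrading magnesium dechelatase known as Stay-Green, at -1.07 ± 0.25 (adjusted p 0.0244), and a second SGR probe set had -1.08 ± 0.21 (adjusted p 0.00856). The SGR call was lost without GR14 replicate 1 or 2 or WT replicate 1 or 2, with adjusted p between 0.0803 and 0.0933. A fit with no intensity trend lost the call too (adjusted p 0.0671). Both making and breaking enzymes of chlorophyll were therefore among those that fell. The other magnesium chelatase subunits, CHLD and CHLI, had -0.12 and -0.98 and did not pass. PORB, the second protochlorophyllide oxidoreductase, had -0.47 ± 0.15 (adjusted p 0.0846), whereas CHLG, NOL, NYC1 and GSA had differences between 0.31 and 0.39 that did not pass.

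Among light-harvesting and photosystem genes beyond RCABP89 and PSAG, 1 of 3 fell. RCABP69, another antenna gene, went from 12.09, 12.40 and 12.84 in WT to 11.58, 11.25 and 11.46 in GR14, a log2 difference of -1.01 ± 0.19 (limma adjusted p 0.00653). With WT array 1 as the only control its difference was -0.66 and did not pass (adjusted p 0.181). CAB2R, also an antenna gene, and PSAH, a photosystem I subunit, had differences of 0.09 and -0.11 and did not pass. A second CAB2R probe set had -0.03.

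Of 4 electron transport genes 1 rose and 0 fell. LFNR1, the leaf ferredoxin-NADP reductase that LIR1 is known to bind, rose in GR14 by 0.73 ± 0.15 on the log2 scale, from 11.26 ± 0.12 to 11.99 ± 0.19 (SD, n = 3; limma adjusted p 0.0116). It did not pass with WT array 1 as the only control (0.87, adjusted p 0.0714) or without GR14 replicate 2 (0.69, adjusted p 0.0525). PETC, the Rieske protein of the cytochrome complex, had 0.44 ± 0.13 (adjusted p 0.0777), plastocyanin, PETE, had 0.03 and NDHM had 0.27, none past the test. In carbon fixation and photorespiration 1 of 7 tested genes fell and 1 rose. CFBP1, a cytosolic fructose-bisphosphatase of sucrose synthesis rather than of the chloroplast, fell by 1.31 ± 0.21 (adjusted p 0.00213). GLO1, a glycolate oxidase of photorespiration, rose by 0.72 ± 0.19 (adjusted p 0.0419). That call was lost without any single WT or GR14 array (adjusted p between 0.068 and 0.113). It was also lost with median centring (adjusted p 0.0806), no filter (0.054) and no intensity trend (0.0973). With WT array 1 as the only control the GLO1 difference was 0.70, and a second GLO1 probe set had -0.09 in the main fit. RBCS, the small subunit of RuBisCO, had -0.28 ± 0.17 (adjusted p 0.395), and reads of its near-identical family members cannot be told apart on this probe set. Further tested RBCS probe sets had 0.10 ± 0.38 and -0.01 ± 0.51, neither past the test. RuBisCO activase was far lower in GR14, but it was chosen for that difference, so RBCS is no like comparison for it.

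Light perception and its transcription factors were a separate list of 7 genes. GLK1 and GLK2, which encode transcription factors known to activate chlorophyll-synthesis and antenna genes, both fell in GR14. GLK1 was at 9.80, 9.77 and 9.42 in WT and at 8.11, 7.13 and 7.34 in GR14, a difference of -2.14 ± 0.24 (limma adjusted p 0.000143). GLK2 differed by -1.08 ± 0.17 (adjusted p 0.00182). Its 3 other probe sets had differences between -1.71 and -1.20, of which 1 passed. The phytochromes PHYA, PHYB and PHYC had 0.06, 0.32 and 0.03, and the phototropins PHOT1A and PHOT2 had 0.04 and -0.60, none past the test. The photoreceptor genes therefore did not pass where the transcription factors did.

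**Figure D3:**
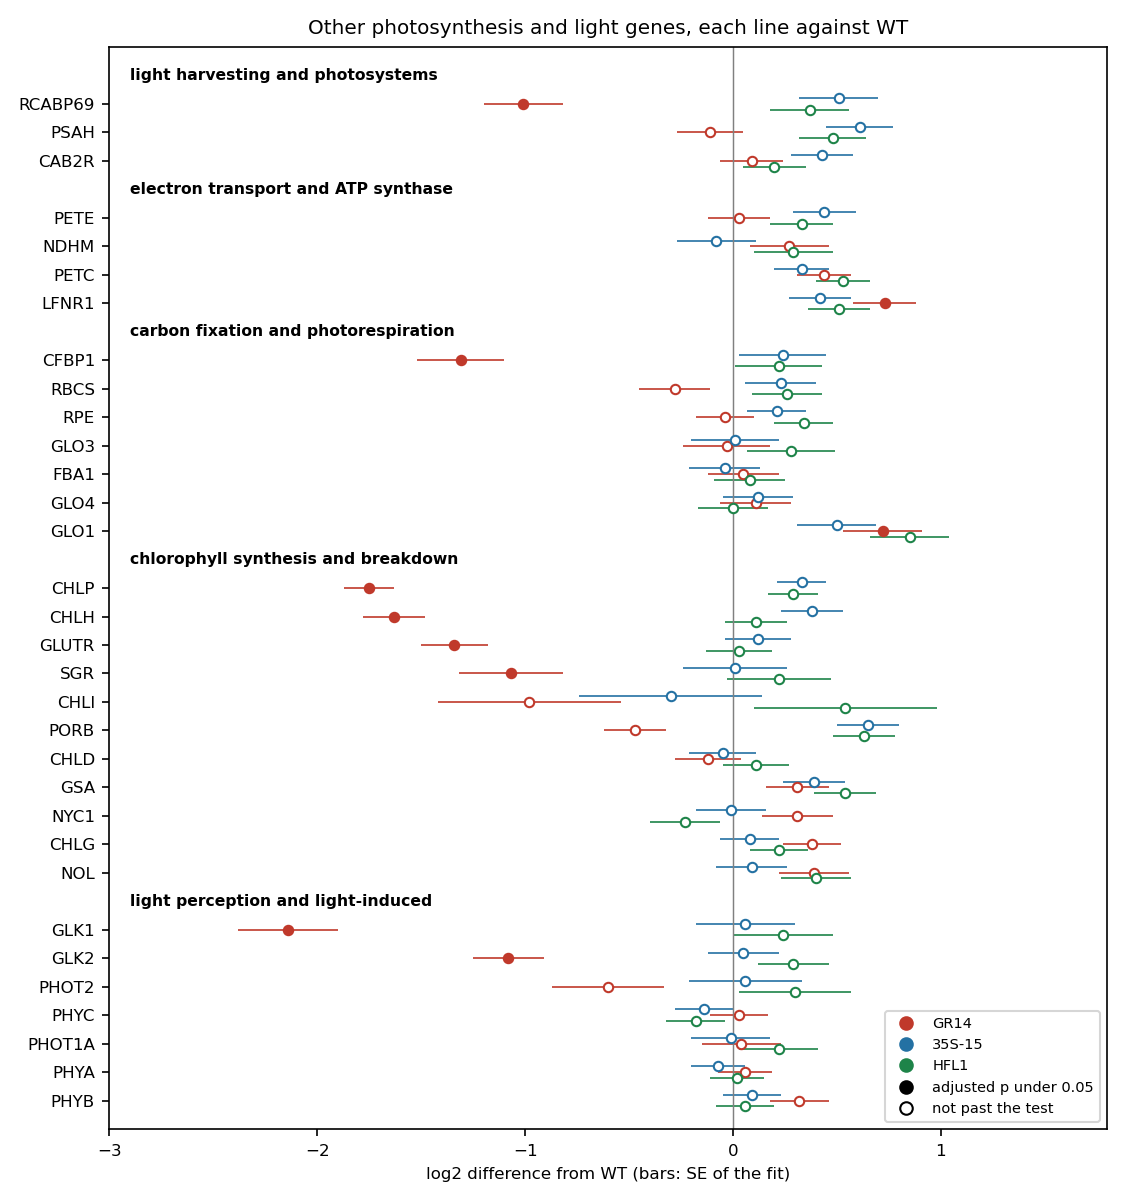
Log2 difference from WT (horizontal axis, with the SE of the fit) of the 25 other photosynthesis genes and 7 light genes in GR14, 35S-15 and HFL1, grouped by role; filled points passed a limma adjusted p of 0.05. GR14 has filled points on the left for CHLP, CHLH, GLUTR, SGR, RCABP69, CFBP1, GLK1 and GLK2 and on the right for LFNR1 and GLO1, and 35S-15 and HFL1 have none.

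In 35S-15 and HFL1 against WT 0 of these 25 photosynthesis genes passed by limma, while 11 and 10 had an unadjusted p under 0.05, as had 6.19% and 6.74% of all tested probe sets. These 11 became 5 without 35S-15 replicate 2 and 7 without WT replicate 1 or 35S-15 replicate 3, and the 10 became 5 without HFL1 replicate 2. The list's median log2 difference was 0.23 in 35S-15, with 20 of 25 genes above WT, and 0.29 in HFL1, with 24 of 25, against a median of 0.01 over all tested probe sets in each. Of all tested probe sets, 51.8% in 35S-15 and 51.5% in HFL1 were above WT. The 25 genes were read on the same arrays, so they are not separate observations of a line. Both lines were compared with the same WT arrays, so their agreement is not a separate observation either. Without WT replicate 3 the median in 35S-15 was 0.10. Centring each array on its median gave a list median of 0.08 and 14 of 25 genes in 35S-15 and 0.21 and 21 of 25 in HFL1. All tested probe sets were then at a median of -0.14 and -0.07, with 32.6% and 41.5% of them above WT. Centring shifts all probe sets of a comparison by the same amount, so it cannot change the list median minus that of all tested probe sets. That value was 0.22 in 35S-15 and 0.28 in HFL1, and its constancy is no check of the list. Centring left 2 and 6 genes with an unadjusted p under 0.05. PORB had the lowest p of the list in 35S-15, with 0.65 ± 0.15 (adjusted p 0.481), and 0.63 ± 0.15 in HFL1 (adjusted p 0.476). Between HFL1 and 35S-15 0 of the 25 passed and 0 had an unadjusted p under 0.05.

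Relative to GR14, 8 of the 25 photosynthesis genes were higher by limma in 35S-15 and 8 in HFL1, and 0 were lower in either. Of all tested probe sets 3.42% and 3.92% were called higher and 2.52% and 2.79% lower. They were CHLP, CHLH, GLUTR, PORB, SGR, RCABP69, PSAH and CFBP1 in each comparison, which share the GR14 arrays. CHLP stood 2.07 ± 0.12 above GR14 in 35S-15 and 2.04 ± 0.12 above it in HFL1 (adjusted p 8.36e-07 and 8.93e-07). PORB was higher by 1.12 ± 0.15 and 1.11 ± 0.15 (adjusted p 0.00045 and 0.000495). PSAH was higher by 0.72 ± 0.16 and 0.59 ± 0.16 (adjusted p 0.0162 and 0.043), and the HFL1 call was lost without any single WT or GR14 array (adjusted p between 0.0508 and 0.134). The 35S-15 call of PSAH was lost without GR14 replicate 2 (adjusted p 0.0624), without 35S-15 replicate 3 (0.0669) and with no intensity trend (0.0531). In 35S-15 the SGR call was lost with median centring, with no intensity trend, and without replicate 1 or 2 of GR14 or 35S-15 (adjusted p between 0.0613 and 0.0895). GLK1 was higher by 2.20 ± 0.24 and 2.37 ± 0.24, and GLK2 by 1.12 ± 0.17 and 1.37 ± 0.17 (adjusted p 0.00118 or less).

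Markers of other seed tissues were set beside these results. Of 10 listed embryo and aleurone markers 4 were on the array. Their summed signal ranged from 15700 to 79200 over the WT arrays and from 32200 to 86800 over those of GR14. For 35S-15 the range was 46500 to 80800 and for HFL1 14400 to 51700, and 0 of the 4 had a group mean below the array medians. Of the 4, VP1, a regulator of embryo maturation, was higher in GR14 than in WT (12.08 ± 0.25 against 10.83 ± 0.53, limma adjusted p 0.0139), and EM, LEA3 and RAB21 did not pass. Of the 5 green-tissue markers on the array 3 are members here, chosen for their level in GR14, so the summed signal (51300 to 54300 in GR14, 79000 to 125000 in the other groups) is no separate observation. The other 2, CAB2R and RBCS, had log2 differences of GR14 from WT of 0.09 and -0.28 and did not pass (limma adjusted p 0.798 and 0.395). CCA1, a circadian clock factor that in Arabidopsis peaks around dawn, was at 8.82 ± 0.24 in GR14 and at 13.17 ± 0.10 in WT. The part of tissue makeup and of the hour of sampling in the differences was not tested.

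Genes with the most similar profile were found among 2241 other genes with an informative symbol, by the Pearson correlation of log2 signal with the main probe set over the 12 arrays. Because the GR14 arrays stand apart, a high value mainly says that a gene also set GR14 apart, so the correlation over the 9 other arrays is given beside it. For RCAA1 the nearest were CHLP (0.988, and 0.64 over the 9), CAO (0.977 and 0.02) and the S-adenosylmethionine synthetase gene SAM2 (0.971 and 0.38). RCABP89 was nearest to CHLP (0.978 and 0.55), RAA1 (0.971 and 0.71) and the antenna gene RCABP69 (0.961 and 0.87). RAA1 was dim, at means of 6.17 in WT, 6.67 in 35S-15, 6.66 in HFL1 and 2.62 in GR14. The array medians were between 5.67 and 6.09, and the same limit holds where RAA1 is named for PORA. PSAG was nearest to ASMT3 (0.977 and 0.68), the magnesium transporter gene MRS2-A (0.973 and 0.83) and CHLP (0.973 and 0.63).

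For PORA the nearest was ALADH, which encodes aminolevulinate dehydratase of the tetrapyrrole pathway that leads to chlorophyll (0.984 and 0.82), ahead of RAA1 (0.949 and 0.43) and CCA1 (0.946 and -0.01). LIR1 was nearest to TLP3 (0.943 and 0.26), BBD1 (0.941 and 0.22) and the splicing factor gene RSZ21 (0.940 and 0.52). CHLP was thus among the nearest for 3 of the 5 genes. RCABP69 with RCABP89, ALADH with PORA and MRS2-A with PSAG kept values above 0.80 when GR14 was left out, whereas CAO with RCAA1 and CCA1 with PORA were near 0.

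**Figure D4:**
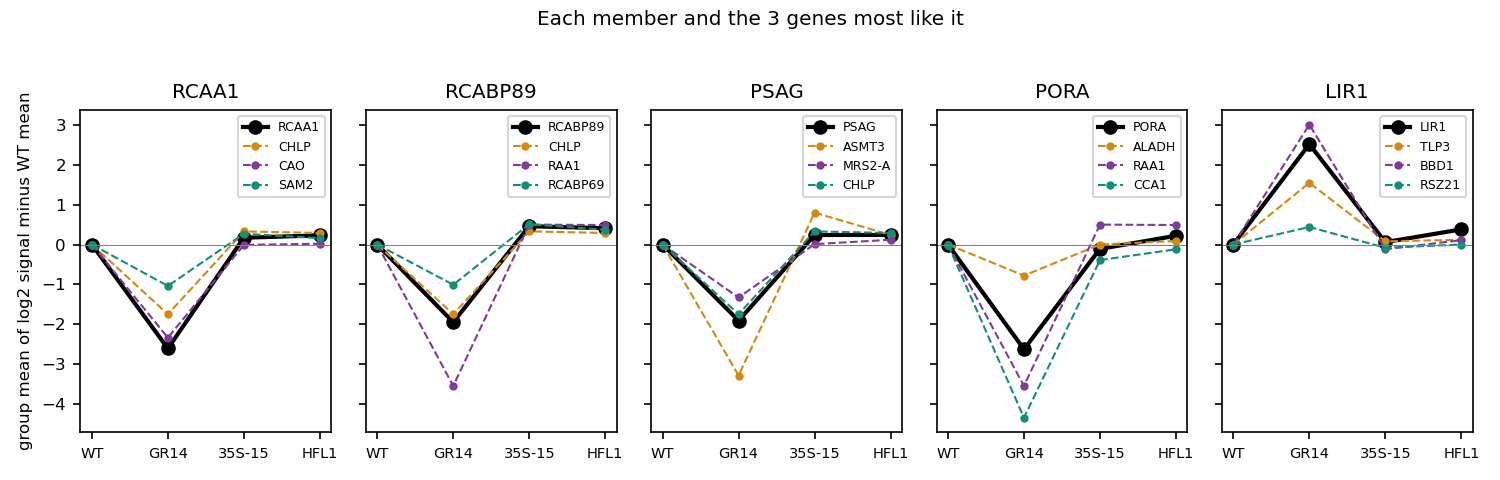
Group mean of log2 signal minus the WT mean (vertical axis, shared) for the main probe set of each gene, in black, and for the 3 genes most like it, in colour; lines only join points of 1 gene. GR14 is the group that departs in every panel, with differences between -2.63 and -1.91 for PSAG, RCABP89, RCAA1 and PORA and of 2.52 for LIR1.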

How the data were processed

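The authors deposited 1 linear intensity per probe set and array, made with MAS5 per the submitters' processing notes, which name no version. Each array had been scaled to a common trimmed mean. No detection calls, sequences or genome build were used.

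Log2(signal) was taken without further normalization. The 123 AFFX and 64 RPTR control probe sets were left out, and 31792 probe sets that exceeded the array median on 3 or more arrays were tested with limma 3.58.1 in R 4.3.3 (4-group model, eBayes with intensity trend, two-sided, Benjamini-Hochberg at 0.05 over all tested probe sets). Replicates were numbered in accession order. Precision is limited by the number of arrays. The fit was tested on simulated data.

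Names came from the platform annotation and the RefSeq gene table of ASM3414082v1. The main probe set of a gene was that with the highest mean. Named genes were the 3 of each role with the lowest p, the 3 most similar to each member, and further list members named after their values were seen. Of the lists, 4 genes were left out because the listed name is a synonym of another protein. Members and lists were chosen with earlier results of these data known. Alternatives covered normalization, filters, the offset, array weights, probe set choice and single arrays left out.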

Additional observations from a re-analysis of the deposited data

How the results depend on the processing

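No paired analysis was possible because the labels carry no replicate numbers within groups. The count of photosynthesis genes that passed in GR14 against WT was 8. It was 5 with WT array 1 as the only control, and between 5 and 8 when single arrays were left out, with 5 without GR14 replicate 2. For 35S-15 and HFL1 against GR14 the count was 8 each, and 5 each without probe sets ending in _x_at and _s_at, where 20 genes were tested. It was between 6 and 9 and between 7 and 8 without single arrays. The count was 0 for 35S-15 and HFL1 against WT and for HFL1 against 35S-15, also without any single array. Other settings (quantile normalization, median centring, other filters, log2(signal + 50), no intensity trend, array weights, the compared groups alone, another probe set per gene, and, added after the data were seen, the 4 genes with a shared synonym) left the counts within 1.5 times.

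The GR14 differences of all 9 probe sets kept their sign under every alternative. These differences chose the genes, so the kept sign is a description and no support for them. Log2(signal + 50) lowered PORA to 2.15 and 2.46, and the dim PSAG probe set to 0.73 and 1.11, against GR14 in 35S-15 and HFL1. No member passed or changed sides of the threshold in the 3 tested comparisons, where differences changed sign as follows. In 35S-15 against WT, median centring gave -0.03 for RCAA1 (second brightest probe set) and -0.09 for LIR1, array weights -0.04 for LIR1, and WT array 1 alone 0.11 for PORA. In HFL1 against 35S-15, the brighter PSAG probe set was -0.003 with quantile normalization and -0.10 with array weights, and RCABP89 was 0.05 and 0.03 with quantile normalization and median centring. Leaving out single arrays gave, in 35S-15 against WT, -0.40 to 1.58 for the dimmer PSAG probe set, -0.42 to 0.31 for PORA and -0.13 to 0.34 for LIR1. In HFL1 against WT it gave -0.009 to 0.43 for the brighter PSAG probe set and -0.10 to 0.63 for PORA. In HFL1 against 35S-15 it gave -0.03 to 0.35, -0.0073 to 0.20 and -0.03 to 0.20 for 3 RCAA1 probe sets, -0.24 to 0.19 for the brighter PSAG probe set and -0.19 to 0.08 for RCABP89. The cause of these shifts was not tested.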
